A study of Mus musculus with 6 samples.

Results

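The genes described here are 8 that build or govern cartilage, namely Acan, Comp, Matn1, Matn3, Hapln1, Cnmd, Chad and Sox9, measured in mouse thyroid to see how much cartilage RNA of the trachea and larynx each dissected sample carried. The members were every probe set, the unit that an expression array reads for a transcript, that the platform annotation gave to a single gene of the 8. That made 14 probe sets of 45101, and all 8 genes had at least 1. The arrays hold 3 samples from mice lacking Slc26a4 (knockout 2, 4 and 6, by the sample numbers in the titles) and 3 from mice heterozygous for it (heterozygous 1, 3 and 5), all at postnatal day 15. No wild-type group was analysed here, so every control carries 1 disrupted allele. Slc26a4 encodes pendrin, an anion exchanger of the thyroid cell's apical membrane. The labels say that the thyroid was microdissected, and they give neither the part of the gene that was deleted, nor the strain, the sex or the number of animals behind each RNA. The p-values therefore measure the spread between these samples, which may be technical.

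Cartilage is a tissue of few cells in a large matrix. Collagen II fibrils, with collagens IX and XI bound in and on them, hold aggrecan, a large proteoglycan that is anchored to hyaluronan by link protein and draws in water. Adaptor proteins such as the matrilins, cartilage oligomeric matrix protein and chondroadherin tie these parts together and to the cells. The transcription factor SOX9 switches on most of these matrix genes in chondrocytes, and it is also present in several epithelia, thyroid follicular cells among them. The thyroid lies against the cartilages of the larynx and upper trachea, so these can enter a dissection.

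Sox9 was bright on all 6 arrays, Comp, Hapln1 and Chad were moderately above the array's background in both genotypes, Acan and Cnmd lay closer to it, and Matn1 and Matn3 lay under it. Background was set at a signal of 22.9, the brightest value that any of 27 control probe sets for bacterial transcripts reached on any array. Of the 14 probe sets, 7 lay above this on all 6 arrays, 4 lay under it on all 6, and the other 3 were mixed. On any single array 67.5% to 73.8% of all probe sets lay above it, and the median signal was between 78.1 and 103.6. A reading above background thus does not set a gene apart from most of the array. Matn1 and Matn3 did not exceed background on any array. Collagen II, which makes up cartilage fibrils, read 27.7, 23.5 and 27.7 in knockouts 2, 4 and 6, against 12.6, 36.0 and 15.2 in heterozygous 1, 3 and 5, by the probe set of Col2a1. The array labels name thyroid, and thyroglobulin was bright, at 12544 ± 708 in knockout and 12918 ± 768 in heterozygous samples (mean signal ± SD, n = 3 arrays each here and below). The cartilage markers did not read alike: Matn1 and Matn3 were under background and Col2a1 was near it. A probe set lay above it on all 6 arrays for 6 of the 8 members. The same held for 4 of 8 fibril collagens, namely Col9a1, Col9a3, Col11a1 and Col27a1. The members are therefore treated below as a list of genes and not as a measure of cartilage. Whether dim readings reflect few cartilage cells, little RNA per cell or poor probe sets cannot be told apart in bulk samples.

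**Figure D1:**
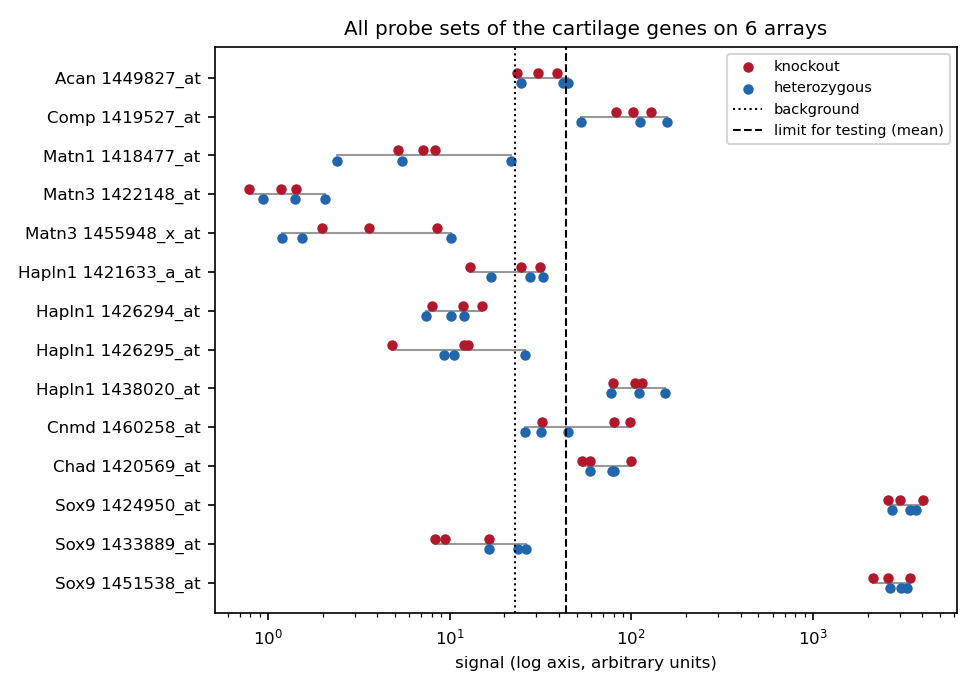
Signals of all 14 probe sets of the 8 cartilage genes on the 6 arrays, on a log axis in arbitrary units, with knockout arrays in red and heterozygous arrays in blue. The dotted line is the background of 22.9 and the dashed line the limit of 43.5 that the mean had to exceed for testing. Both probe sets of Matn3 and the probe set of Matn1 lie left of the background. The brightness of different probe sets is not a comparison of transcript levels.

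The RefSeq promoters of 6 of the 8 genes were at hand, in the build GRCm38.p6. The 250 bases before the transcription start were searched on both strands for ACAANG, where N is any base. This pattern is a loose form of the core that SOX proteins can bind. It was found before the starts of Hapln1, Matn1 and Matn3, and in 36.3% of 32851 promoter windows of the same length over all genes. It was not found in the windows of Acan, Chad and Cnmd. The 3 sequences that hold it are shown because Matn1 and Matn3 read under background in samples where the SOX9 transcript was bright. A match is a run of letters and not a proven site. Capitals mark the match, which has G at N in all 3 sequences, and in Matn1 it is on the opposite strand.
Hapln1 (chr13:89540386-89540635, + strand): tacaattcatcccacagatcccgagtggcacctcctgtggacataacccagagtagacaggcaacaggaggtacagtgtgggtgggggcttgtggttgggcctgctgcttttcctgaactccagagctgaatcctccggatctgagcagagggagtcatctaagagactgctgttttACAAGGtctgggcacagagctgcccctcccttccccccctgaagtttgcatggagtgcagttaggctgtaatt
Matn1 (chr4:130944135-130944384, + strand): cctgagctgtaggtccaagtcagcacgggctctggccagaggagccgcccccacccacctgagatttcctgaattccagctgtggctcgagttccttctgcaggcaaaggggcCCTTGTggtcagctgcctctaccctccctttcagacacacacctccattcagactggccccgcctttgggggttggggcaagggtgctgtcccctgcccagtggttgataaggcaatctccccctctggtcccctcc
Matn3 (chr12:8947679-8947928, + strand): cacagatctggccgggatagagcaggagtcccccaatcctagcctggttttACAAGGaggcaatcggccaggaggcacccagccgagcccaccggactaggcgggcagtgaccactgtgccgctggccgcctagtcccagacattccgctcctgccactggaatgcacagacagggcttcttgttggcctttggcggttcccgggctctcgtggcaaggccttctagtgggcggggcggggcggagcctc

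Aggrecan, the chief proteoglycan of cartilage, was just above background. Its probe set for Acan read 30.6, 23.5 and 38.8 in knockouts 2, 4 and 6, against 24.6, 42.3 and 44.6 in heterozygous 1, 3 and 5. Knockout 4 and heterozygous 1 were the lowest and heterozygous 5 the highest, and the groups overlapped. Its means were 31.0 ± 7.68 in knockout and 37.2 ± 11.0 in heterozygous samples. Over the 6 arrays it averaged a signal of 33.4 on the log scale, under the limit of 43.5 for testing, whereas Cnmd with 47.4 was the dimmest member that was tested. Of the 14 probe sets, 6 passed that limit, from 5 genes: Comp, Hapln1, Cnmd, Chad and Sox9.

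The link protein gene Hapln1, whose product fastens aggrecan to hyaluronan, had 4 probe sets that did not read alike. The probe set 1438020_at read 105, 79.2 and 114.5 in knockouts 2, 4 and 6, against 77.1, 154 and 109.6 in heterozygous 1, 3 and 5. Heterozygous 3 stood highest, heterozygous 1 and knockout 4 were lowest, and the groups overlapped. The means were 99.6 ± 18.3 in knockout and 114 ± 38.5 in heterozygous samples, a log2 difference of -0.13 ± 0.27 (SE) with a 95% interval of -0.75 to 0.48. The other 3 probe sets were near or under background: 1421633_a_at lay between 12.9 and 32.9, 1426294_at between 7.42 and 15.0, and 1426295_at between 4.82 and 26.1.

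Matn1 and Matn3 encode matrilins, filament-forming adaptors of the cartilage matrix, and read under background on every array. Matn2, a matrilin gene that is no member, was bright, between 1995 and 2660. Matn1, which marks tracheal and other hyaline cartilage, read 5.20, 8.28 and 7.19 in knockouts 2, 4 and 6, against 5.45, 21.8 and 2.40 in heterozygous 1, 3 and 5. Heterozygous 3 came closest to background. Matn3 lay between 0.787 and 2.06 by 1422148_at and between 1.20 and 10.2 by 1455948_x_at. No genotype difference can be read from values at this level.

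Comp and Chad encode further adaptors of the matrix and were above background throughout. Comp, whose pentameric product binds collagen and is found in tendon as well as cartilage, read 103, 82.8 and 129 in knockouts 2, 4 and 6, against 53.0, 111 and 158 in heterozygous 1, 3 and 5. The heterozygous arrays held both its lowest and its highest value, 2.98-fold apart. Its means were 105 ± 22.9 in knockout and 107 ± 52.4 in heterozygous samples, and the log2 difference was 0.05 ± 0.34 (SE; 95% interval -0.74 to 0.84). Chad encodes chondroadherin, a leucine-rich protein that chondrocytes bind through an integrin. It read 100.1, 53.7 and 59.3 in knockouts 2, 4 and 6, against 80.0, 58.9 and 78.1 in heterozygous 1, 3 and 5. Knockout 2 was highest and knockout 4 lowest, so the knockout arrays spanned the heterozygous ones. The means were 71.0 ± 25.4 in knockout and 72.3 ± 11.7 in heterozygous samples, a log2 difference of -0.05 ± 0.26 (SE; 95% interval -0.65 to 0.55).

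Cnmd, which encodes chondromodulin, a secreted inhibitor of vessel growth that keeps cartilage avascular, had the widest spread of the tested members. It read 80.7, 32.1 and 98.1 in knockouts 2, 4 and 6, against 25.9, 31.8 and 45.0 in heterozygous 1, 3 and 5. Knockouts 2 and 6 lay above all heterozygous arrays, while knockout 4 lay between heterozygous 3 and 5, so the groups overlapped. The means were 70.3 ± 34.2 in knockout and 34.2 ± 9.78 in heterozygous samples, a 1.62-fold difference with a 95% interval of 0.919 to 2.87 on the scale of log2(signal + 16.7). The unadjusted p in limma was 0.0851 and the adjusted p was 1.0, so the call was not made. Without knockout 2 or without knockout 6 the probe set's mean fell under the limit for testing, and without both heterozygous 1 and knockout 6 the log2 difference was 0.33, against 0.70 with all arrays.

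Sox9, the transcription factor of the group, was far above background on every array by 2 of its 3 probe sets. By 1424950_at it read 4046, 2996 and 2592 in knockouts 2, 4 and 6, against 3676, 2708 and 3441 in heterozygous 1, 3 and 5. By 1451538_at it read 3425, 2573 and 2128 in knockouts 2, 4 and 6, against 3273, 3069 and 2668 in heterozygous 1, 3 and 5. Both placed knockout 2 first, heterozygous 1 next and knockout 6 last, and the groups overlapped in both. The means were 3211 ± 751 in knockout and 3275 ± 505 in heterozygous samples by the first, a log2 difference of -0.041 ± 0.18 (SE; 95% interval -0.45 to 0.37). They were 2709 ± 659 in knockout and 3003 ± 308 in heterozygous samples by the other, a log2 difference of -0.17 ± 0.17 (SE; 95% interval -0.56 to 0.22). The third probe set, 1433889_at, was mostly under background, at 8.35, 9.39 and 16.5 in knockouts 2, 4 and 6, against 26.5, 23.8 and 16.4 in heterozygous 1, 3 and 5.

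**Figure D2:**
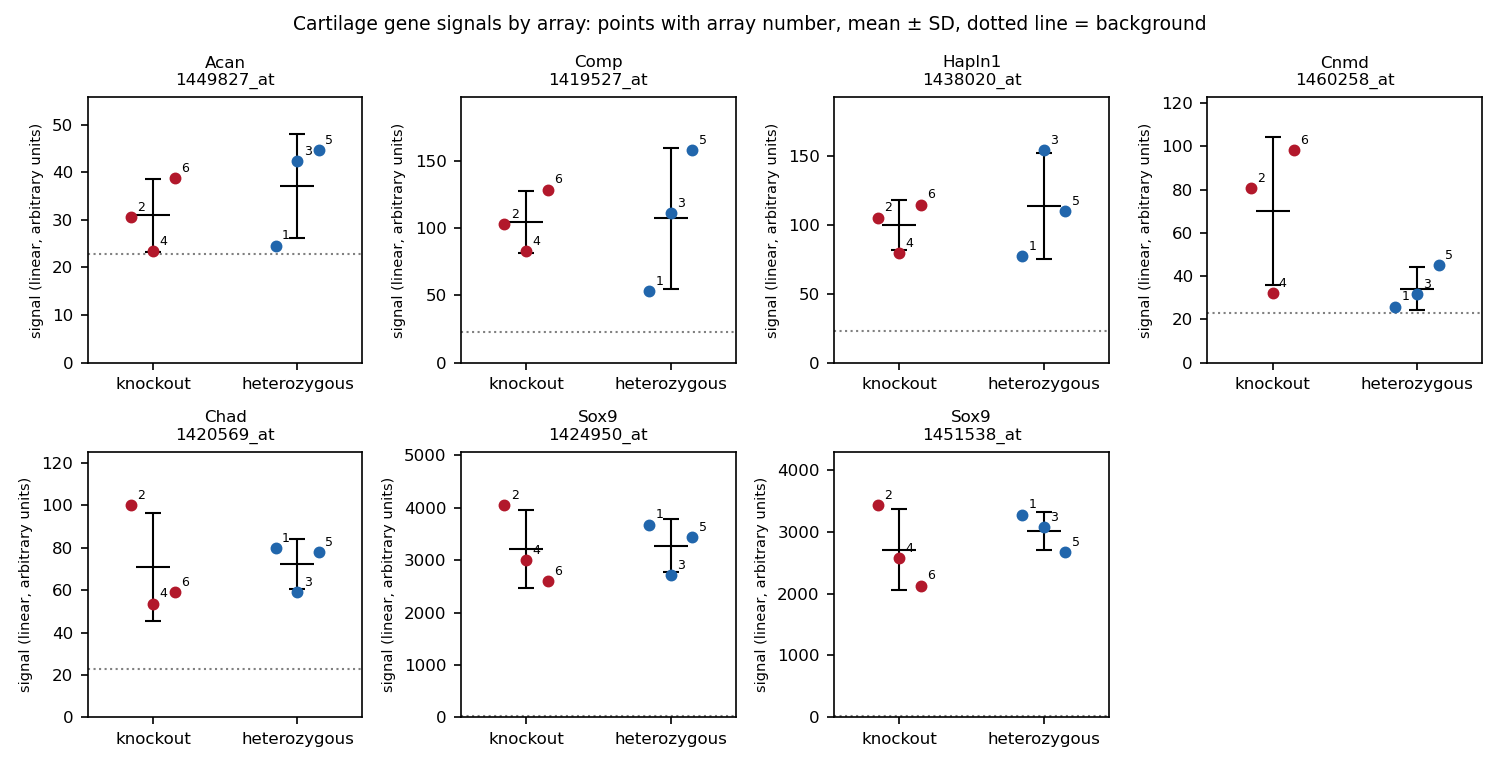
Signals, linear and in arbitrary units, of the 6 tested probe sets and of Acan, with each array as a numbered point (red knockout, blue heterozygous), bars for the mean ± SD of 3 arrays and a dotted line at the background of 22.9. In every panel the knockout and heterozygous points overlap, and Acan lies between 23.5 and 44.6.

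None of the 5 tested members passed the test between knockout and heterozygous thyroid, and Acan, Matn1 and Matn3 were too dim to be tested. Of the 6 tested probe sets, 0 passed an adjusted p of 0.05 in either direction (limma), and 0 had an unadjusted p under 0.05. Over the array the same rule called 0 of 27022 probe sets, or 0%, and 138 had an unadjusted p under 0.05, or 0.511%. An unmoderated test that fitted each probe set alone also called 0 after adjustment, with 283 at an unadjusted p under 0.05. Of the 6 tested probe sets of the members, 0 had every knockout array above every heterozygous one, against 1.64% of all those tested, and 0 had every knockout array below, against 2.04%. Together the groups did not overlap for 3.68% of all those tested. By the brightest tested probe set of each gene, 2 of the 5 tested genes had the higher mean in knockout samples and 3 the lower, with a median log2 difference of -0.041. Over all 12904 genes tested, 6260 were higher and 6644 lower, with a median of -0.0043. The intervals are wide: for Comp they leave room for a log2 difference between -0.74 and 0.84.

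**Figure D3:**
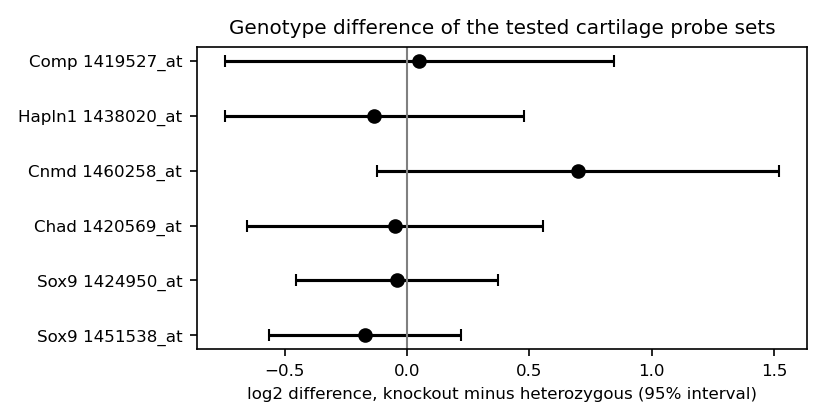
Log2 differences, knockout minus heterozygous, of the 6 tested probe sets with 95% intervals from limma. All 6 intervals include 0, and Cnmd, at 0.70, lies farthest from it.

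The tested members did not share a single order of arrays. For Comp and Hapln1 the upper 3 arrays were heterozygous 5, heterozygous 3 and knockout 6, and the lowest was heterozygous 1, with knockout 4 next to it. Acan had the same upper 3 arrays. For Chad, and for Sox9 by 1424950_at, the upper 3 were knockout 2, heterozygous 1 and heterozygous 5. As a log2 deviation from the mean of 6 arrays, heterozygous 1 was at -0.76 for Comp, at 0.15 for Chad and at 0.20 for Sox9. Cnmd followed neither order, with deviations of 0.60, -0.39 and 0.84 in knockouts 2, 4 and 6, against -0.59, -0.40 and -0.056 in heterozygous 1, 3 and 5.

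The upper arrays of Acan, Comp and Hapln1 were also those with the highest median signal over all probe sets. That median was 103.6 on knockout 6, 93.7 on heterozygous 3 and 85.4 on heterozygous 5, and between 78.1 and 79.8 on the other 3 arrays. Among 13753 probe sets with mean signals between 20 and 160, a range set after the members' values were seen, the median log2 deviation was -0.088, -0.14 and 0.20 on knockouts 2, 4 and 6, against -0.11, 0.11 and -0.0012 on heterozygous 1, 3 and 5. After quantile normalization, which gives every array the same distribution, the range of Comp over the arrays was 1.23 log2 units, against 1.32 before it. It was 0.67 against 0.86 for Hapln1 and 0.46 against 0.61 for Acan, and the same array stood highest for each. The deviation of knockout 6 for Hapln1 was then -0.11, where it had been 0.12. For Chad the range was larger after it, 0.94 against 0.73. For Cnmd it was 1.21 against 1.43, just under that of Comp, and the highest array was then knockout 2 in place of knockout 6, and the lowest heterozygous 3 in place of heterozygous 1.

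The collagens of the cartilage fibril differed in signal, with Col9a1 and Col9a3 bright and Col2a1, Col9a2 and Col11a2 dim, although different probe sets do not compare transcript levels. Of 8 genes of this list, 4 were tested and 0 passed. The mean was higher in knockout samples for 1 and lower for 3 (median log2 difference -0.13). The higher was Col27a1, at 228, 250 and 387 in knockouts 2, 4 and 6, against 172, 214 and 354 in heterozygous 1, 3 and 5. Col9a1, a chain of collagen IX that coats the fibril, read 1760, 1528 and 1425 in knockouts 2, 4 and 6, against 1588, 2133 and 1174 in heterozygous 1, 3 and 5, by 1428571_at. Its partner chain Col9a3 read 1413, 800.3 and 1116 in knockouts 2, 4 and 6, against 1308.5, 1624 and 993 in heterozygous 1, 3 and 5, by 1460693_a_at. Both were far above background on all arrays and highest on heterozygous 3. A dim probe set of Col9a3, 1420280_x_at, lay under background on all 6 arrays, between 5.45 and 18.7. The third chain of collagen IX, Col9a2, read under background on all 6 arrays, between 2.01 and 12.3 in knockout and between 17.8 and 22.2 in heterozygous samples.

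Collagen XI, which sets the thickness of the fibril, was dim. Col11a1 read 73.6, 48.8 and 56.5 in knockouts 2, 4 and 6, against 103.3, 68.9 and 60.1 in heterozygous 1, 3 and 5, by 1449154_at, a log2 difference of -0.29 ± 0.26 (SE; 95% interval -0.88 to 0.30). Its dimmer probe set 1418599_at, which was too dim to be tested, read 17.4, 17.7 and 30.9 in knockouts 2, 4 and 6, against 35.9, 50.6 and 44.8 in heterozygous 1, 3 and 5, and there the groups did not overlap. Col11a2 lay between 14.3 and 62.9. Col10a1, the collagen of hypertrophic cartilage, exceeded background only on knockout 6, at 23.7.

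**Figure D4:**
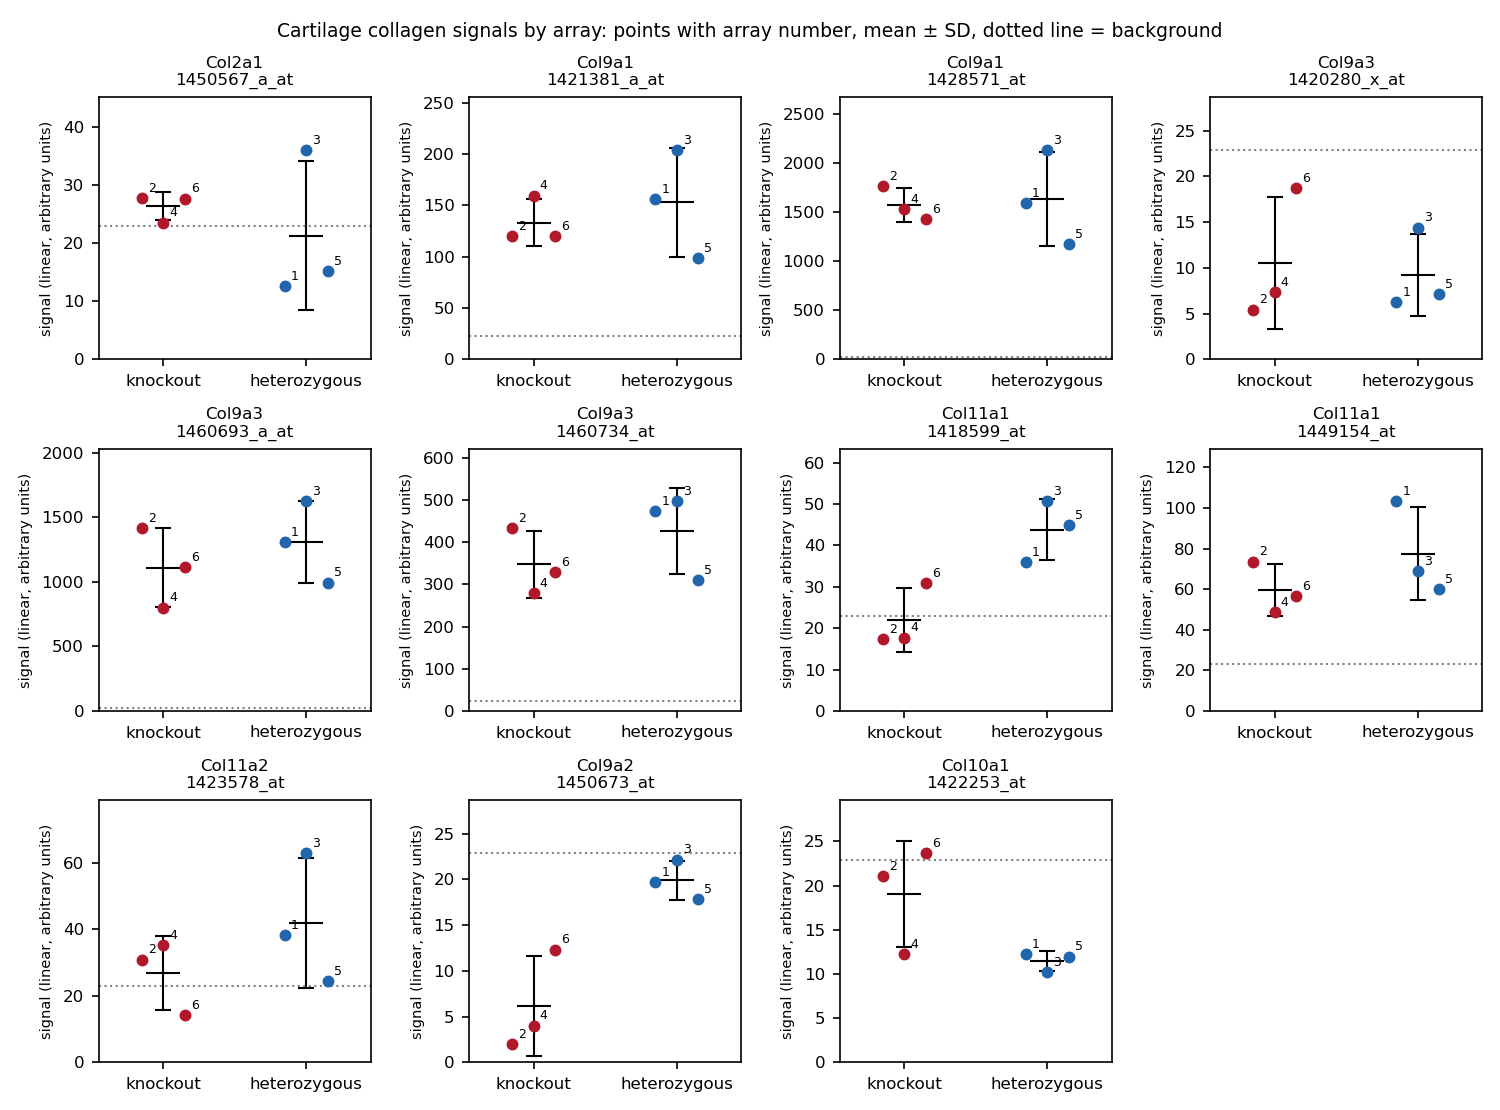
Signals, linear and in arbitrary units, of probe sets for cartilage collagens, with numbered points for the arrays (red knockout, blue heterozygous), bars for the mean ± SD of 3 arrays and a dotted line at the background of 22.9. Both probe sets of Col9a1 and 2 of the 3 of Col9a3 lie above the line on all arrays, Col9a2 lies under it on all 6, and Col2a1 straddles it.

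Among other genes of the cartilage matrix, 19 of 21 listed had a probe set with a single gene name and 11 were tested, 7 with the higher mean in knockout samples and 4 with the lower (median log2 difference 0.024), and 0 passed. Snorc, a chondrocyte membrane proteoglycan, read between 1.89 and 10.05 over the 6 arrays, and Matn4, the fourth matrilin, between 15.1 and 26.6. Both were singled out after their values were seen, and they are among 8 measured genes of the list that were not tested. Other genes of the list were bright, such as Epyc, between 685 and 1477, and Prelp, between 2434 and 2837. The widest of the tested was Mia, a small protein that chondrocytes secrete, at 1505.5, 1212 and 554.9 in knockouts 2, 4 and 6, against 2921, 1673 and 684 in heterozygous 1, 3 and 5. It was lowest on knockout 6 and highest on heterozygous 1. Cytl1, a cytokine-like protein of chondrocytes, read 271, 424 and 465 in knockouts 2, 4 and 6, against 486, 485 and 774 in heterozygous 1, 3 and 5. Its groups did not overlap, and the log2 difference was -0.57 ± 0.25 (SE), with an unadjusted p of 0.0549 and an adjusted p of 1.0 in limma. Prg4, the lubricant of joint surfaces, read 314 ± 137 in knockout and 263 ± 79.4 in heterozygous samples.

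Of the regulators of chondrocytes, 14 of 18 measured genes were bright enough to be tested. Of these 5 had the higher mean in knockout samples and 9 the lower, with a median log2 difference of -0.086, and 0 passed. Sox6, a partner of SOX9 on matrix genes, read 298, 598 and 556 in knockouts 2, 4 and 6, against 388, 355 and 468 in heterozygous 1, 3 and 5. The bone morphogenetic protein receptor Bmpr1b read 542, 369 and 267 in knockouts 2, 4 and 6, against 549.8, 598 and 358 in heterozygous 1, 3 and 5. Ihh, the hedgehog ligand of growth cartilage, did not exceed background on any array. Fgf18, a growth factor for chondrocytes that was singled out after its values were seen, read 116, 137 and 130.3 in knockouts 2, 4 and 6, against 73.9, 80.3 and 90.3 in heterozygous 1, 3 and 5. All 3 knockout arrays lay above the heterozygous ones, with a log2 difference of 0.56 ± 0.19 (SE), an unadjusted p of 0.0180 and an adjusted p of 1.0 in limma.

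Genes that sulfate and assemble proteoglycans had 4 of 9 tested members with the higher mean in knockout samples and 5 with the lower (median -0.067), and 0 passed. Chst11, which adds sulfate to chondroitin, read 2405, 1662 and 1503 in knockouts 2, 4 and 6, against 2158, 1994 and 1822 in heterozygous 1, 3 and 5, highest on knockout 2 and lowest on knockout 6 like Sox9. Slc26a2, the sulfate transporter that cartilage depends on and a relative of pendrin, read 563, 534 and 691 in knockouts 2, 4 and 6, against 543, 630.0 and 761 in heterozygous 1, 3 and 5, a log2 difference of -0.11 ± 0.17 (SE). Enzymes and inhibitors of matrix breakdown had 6 of 7 tested members with the higher mean in knockout samples and 1 with the lower (median 0.10), and 0 passed. The aggrecanase Adamts4 read 248, 391 and 399 in knockouts 2, 4 and 6, against 186, 307 and 638 in heterozygous 1, 3 and 5. For both Adamts4 and Comp, heterozygous 1 was lowest and heterozygous 5 highest.

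Gene lists of skeletal muscle, parathyroid and thymus, tissues that lie beside the thyroid, had wider deviations over the arrays than the cartilage genes, a difference that was not tested. The mean log2 deviation of the 5 tested members was 0.28, -0.27 and 0.15 in knockouts 2, 4 and 6, against -0.27, -0.045 and 0.16 in heterozygous 1, 3 and 5. For skeletal muscle genes it was -1.53 on knockout 6 and 0.83 on knockout 2. It was -2.38 on heterozygous 1 for parathyroid genes and 2.96 on knockout 4 for thymus and T cell genes. Of the thymus list only 3 of 10 measured genes passed the limit for testing, and each of them, Dntt, Cd3g and Cd8a, averaged under it on the other 5 arrays, so a high value on knockout 4 was fixed by the filter. Dntt read 1779.5 on knockout 4 and between 6.09 and 24.5 on the other 5 arrays, and Cd3g read 578 there and between 16.3 and 28.6 on the others. For the 9 thyrocyte genes it was 0.20, -0.085 and -0.17 in knockouts 2, 4 and 6, against 0.21, 0.025 and -0.18 in heterozygous 1, 3 and 5. Knockout 2 and heterozygous 1 were its upper arrays, as they were for Sox9. The part of thyrocyte content in the Sox9 values was not tested.

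Tendon and airway genes are set beside the members because tendon also expresses Comp and the airway wall contains cartilage. Tnmd, the tendon relative of Cnmd, read 2046, 815 and 297.5 in knockouts 2, 4 and 6, against 565.0, 1106 and 939 in heterozygous 1, 3 and 5. It was high on knockout 2, as Cnmd was, and lowest on knockout 6, where Cnmd was highest. Kera, a corneal and tendon proteoglycan, read 44.2, 291 and 537 in knockouts 2, 4 and 6, against 78.4, 124 and 569 in heterozygous 1, 3 and 5. The tendon and perichondrium list deviated by 0.53 on heterozygous 5 and by -0.47 on heterozygous 1, which were also the highest and the lowest array of Comp. On knockouts 2, 4 and 6 the list was at -0.27, 0.15 and 0.14, where Comp was at 0.018, -0.24 and 0.30. The airway list, too, was highest on heterozygous 5 (0.34) and lowest on heterozygous 1 (-0.28). Of the airway list, 13 of 16 measured genes were tested and 0 passed. Scgb3a1, a secretoglobin of airway epithelium, read 723, 589 and 1394 in knockouts 2, 4 and 6, against 783, 466 and 2185 in heterozygous 1, 3 and 5. Foxj1, which drives ciliated cells, was under background on all arrays, with values between 2.02 and 17.2. Tekt1 and Rsph1, also genes of ciliated cells, were above it on all 6, while the ciliary gene Dnah5 was too dim to be tested. Tekt1, a protein of ciliary microtubules, read 206, 189 and 281.5 in knockouts 2, 4 and 6, against 116, 188 and 141 in heterozygous 1, 3 and 5, with every knockout array higher (log2 difference 0.56 ± 0.23 SE, unadjusted p 0.0415 and adjusted p 1.0 in limma), and Rsph1, a part of the ciliary radial spoke, lay between 57.1 and 73.6. The part of tendon or airway tissue in the members' values was not tested.

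**Figure D5:**
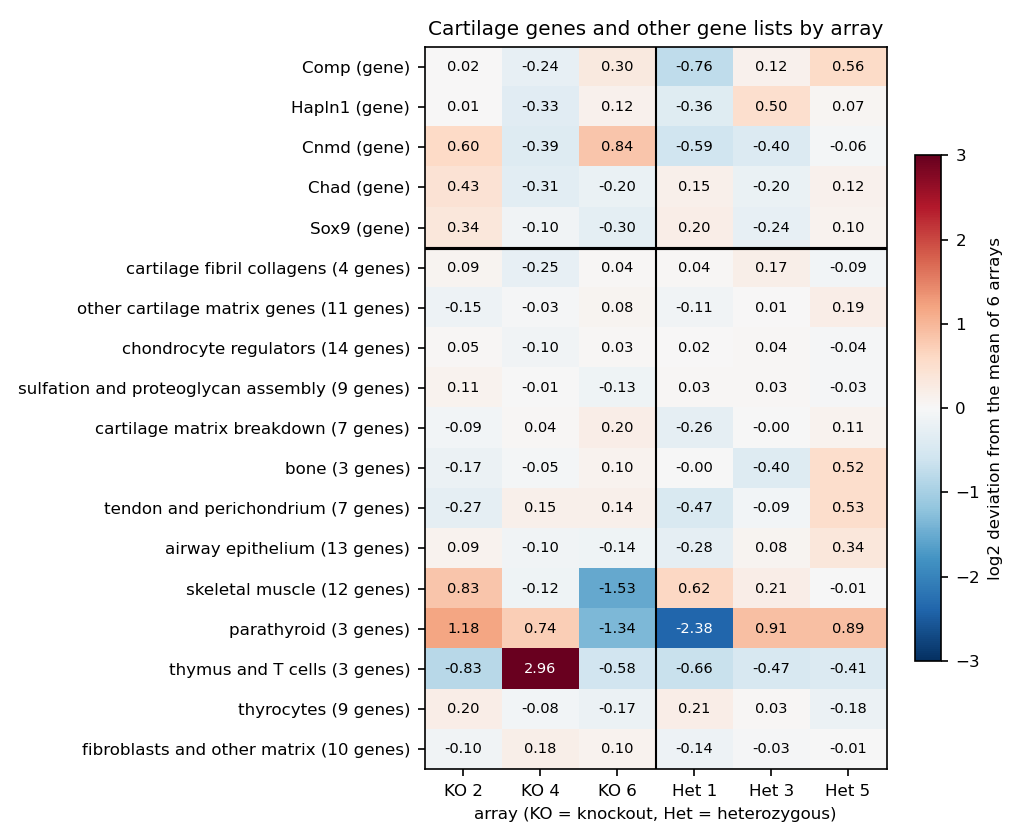
Log2 deviation of each array from the mean of 6 arrays, for the 5 tested cartilage genes (upper block) and for the mean of each other gene list (lower block), with knockout arrays in the left 3 columns and heterozygous arrays in the right 3. The cartilage genes lie between -0.76 and 0.84, while parathyroid reaches -2.38 on heterozygous 1 and thymus and T cells, a list of 3 tested genes that passed the limit for testing through that array, reach 2.96 on knockout 4.

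The genes whose pattern over the arrays was most like the mean of the 5 tested members were looked for among 3091 probe sets with a range of at least 1 log2 unit. The closest 10 were Mesp1, Col23a1, Oxt, Map3k14, Krt20, Sae1, Dnah12, Rpl39, Telo2 and Prrt3, with Pearson's r between 0.875 and 0.990 and Spearman's rho between 0.771 and 1.0 over 6 arrays. They were picked for these values out of many, so no p belongs to them. Several were dim, such as Map3k14, between 24.8 and 67.8, and Rpl39, which fell under background on knockout 4, at 11.7. The mean they were compared with pools members that did not share a single order of arrays. Mesp1, a transcription factor of early mesoderm, read 278, 123 and 210.1 in knockouts 2, 4 and 6, against 125, 179 and 218 in heterozygous 1, 3 and 5. Col23a1, a membrane collagen, read 119, 62.5 and 94.9 in knockouts 2, 4 and 6, against 49.7, 82.0 and 102 in heterozygous 1, 3 and 5. No gene of the other cartilage lists was among the 10. Many of these genes had a range under 1 log2 unit by their brightest probe set, such as Col9a1 (0.85) and Col11a1 (0.87). Such probe sets were not compared.

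The arrays were alike over all probe sets, with 67.5% to 73.8% of them above background, and knockout 6 correlated less with the other 5 (Pearson's r over probe sets 0.972 to 0.980) than these did among themselves (0.985 to 0.990). Slc26a4 itself was under background on all 6 arrays, between 2.10 and 15.7, so it does not check the genotypes. The ratio of the 3' to the 5' control probe set, a sign of RNA length, was 1.33 to 1.47 in knockout and 1.32 to 1.47 in heterozygous samples for Gapdh. It was 2.74 to 3.13 in knockout and 2.70 to 3.21 in heterozygous samples for actin, and 4.41 to 7.04 in knockout and 3.54 to 6.999 in heterozygous samples for the transferrin receptor, where knockout 2 and heterozygous 3 were highest.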

How the data were processed

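RNA of microdissected thyroid, in 3 knockout and 3 heterozygous samples, was labelled after NuGEN's Ovation amplification and hybridized to Affymetrix mouse arrays, per the labels' protocols. The deposited values are linear signal intensities from GCOS, per the submitters' processing notes. The software version was not given in the sources used here. With 2% trimmed from both ends, each array's mean was 500.0, so a difference that moved most transcripts one way would have been removed by this scaling. The precision is limited by the number of arrays.

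Genes were named from the platform annotation. Signals were put on the log2 scale as log2(signal + 16.7), with 16.7 the 25th percentile of all values, which understates changes of dim genes. Leaving out 64 control probe sets, the 27022 of 45037 probe sets whose mean exceeded the 40th percentile (a signal of 43.5) were tested with limma 3.58.1 in R 4.3.3 (lmFit, eBayes with a trend, Benjamini-Hochberg adjustment over all of them, threshold 0.05). Every p for a probe set comes from that fit. Lists used the brightest tested probe set of a gene. Sample numbers do not pair the groups. The members and lists were chosen with earlier results of these data known. Genes of the other lists were picked from those with the widest range over the arrays and from a fixed set of defining genes. Not every such gene is shown: Bpifa1, the widest of the airway list, and Barx1, the widest of the regulators, are given no values. Any other gene was chosen after seeing its values. Alternatives covered quantile and cyclic loess normalization, other pseudocounts and filters, eBayes without a trend, array weights, all probe sets of a gene, Welch's test, and arrays left out. Promoter sequences are RefSeq's.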

Additional observations from a re-analysis of the deposited data

How the results depend on the processing

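No paired analysis was possible because the groups share no sample number. The count of probe sets called stayed at 0 over the array and among the members under every alternative run, Welch's test included, each array left out in turn as well. The median log2 difference over the tested member genes was -0.041, between -0.20 and 0.090 with 1 array left out, and 0.32 with knockouts 4 and 6 both removed, a fit that assumes the lone knockout 2 varies like the heterozygous arrays. None of the log2 differences of single genes passed under any alternative that kept more than 1 array per group. Signs turned for Comp, Hapln1, Chad and Sox9, whose differences with all arrays were small beside their intervals. For Comp (0.05) the value was between -0.32 and 0.35 with 1 array left out, negative without knockout 6 (-0.088) or heterozygous 1 (-0.32), and -0.45 without heterozygous 1 and knockout 6. For Hapln1 (-0.13) it lay between -0.35 and 0.083 with 1 array left out, the higher value without heterozygous 3, and was -0.44 without heterozygous 1 and knockout 6. For Chad (-0.05) it lay between -0.28 and 0.090 with 1 array left out, at 0.090 without knockout 4, 0.035 without knockout 6, 0.014 without heterozygous 1, 0.099 without heterozygous 1 and knockout 6, and 0.40 without knockouts 4 and 6. For Sox9 (-0.041) it lay between -0.22 and 0.10, at 0.10 without knockout 6, 0.048 without heterozygous 1, 2.3e-05 without heterozygous 5, 0.19 without heterozygous 1 and knockout 6, and 0.32 without knockouts 4 and 6. Cnmd kept its sign in all 14 settings that tested it, between 0.33 and 1.07. It fell under the limit for testing without knockout 2 or without knockout 6, its highest arrays. The filter thus favoured a positive sign for Cnmd, and the kept sign does not cover those settings. The cause of these turns was not tested. With the filter at the 60th percentile only Sox9 of the members was tested. Signals near background limit what can be said of Acan, Matn1 and Matn3.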
